A study of Mus musculus with 2 samples.

Results

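The genes of the matrix metalloproteinases (MMPs), the ADAM family, the ADAMTS proteases and their tissue inhibitors (TIMPs) were described in TUBO cells. They were taken by gene symbol, as every Mmp, Adam or Adamts symbol followed by a number (with 1 optional letter for Mmp and Adam) and as Timp1 to Timp4. This gave 78 of the 31017 genes measured, made up of 22 MMP, 33 ADAM, 19 ADAMTS and 4 TIMP genes. TUBO is a mammary cancer line of mouse origin, established from a tumour of a BALB/c mouse that carries an activated rat Her2/neu transgene under a mammary tumour virus promoter. It is a single line, so nothing here speaks for other mammary cancers. RNA was sequenced from untreated cells kept as flat cultures on plastic, in DMEM/F12 medium with serum, 2% PS and glutamine. The labels give 1 group of 2 libraries, replicates 1 and 2, and do not state that these came from separate cultures, so every spread and p-value below measures only the difference between these libraries, which may be technical.

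MMPs, ADAMTSs and the catalytic ADAMs are zinc-dependent proteases that are made as inactive proenzymes, while other ADAMs are non-catalytic. MMPs cut collagens, laminins and other matrix proteins, and in the mammary gland they take part in branching, involution and tumour invasion. ADAMs sit in the plasma membrane, and catalytic ones release the outer parts of growth factors, receptors and adhesion proteins, ErbB ligands among them. ADAMTSs are secreted and process procollagens and proteoglycans, and TIMPs bind the active site of these enzymes.

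Replicate 1 held 35453278 counts and replicate 2 held 34098259. Levels are counts scaled to library size (CPM), and levels of different genes are compared as CPM divided by kilobases of annotated exonic length (CPM per kilobase). Detection means that both libraries reached 1 CPM. Where no read was counted, up to 3 counts remain possible (0.0842 CPM for replicate 1, 0.0885 CPM for replicate 2), a limit for counting error only. All 5 listed epithelial markers (Epcam, Cdh1, Krt7, Krt8 and Krt18) were detected, with summed levels of 4432 and 4289 CPM in replicates 1 and 2. These genes mark epithelia in general, so a mammary identity was not tested. None of 5 fibroblast markers was detected (summed 1.04 and 0.531 CPM, with Dcn, Lum, Pdgfrb and Col1a2 at 0 counts). Of 5 macrophage and leukocyte markers 1 was detected, the lysosomal Cd68 (9.43 ± 0.116 CPM, mean ± SD, n = 2), while Ptprc and Adgre1 had 0 counts. None of 4 endothelial (summed 0.196 and 0.236 CPM) and none of 4 neutrophil markers (0.561 and 0.383 CPM) was detected.

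The membrane-bound proteases Adam10, Adam9 and Mmp15 led the members, and most secreted MMPs had almost no RNA. Of the 78 members 27 were detected (34.6%), against 37.7% of all genes in the table and 50.6% of its protein-coding genes. The share was therefore near that of all genes and below that of protein-coding genes. Another 21 members had counts but stayed below the minimum in at least 1 library, and 30 had no count in either library. Among the detected members, 15 reached 10 CPM in both libraries and 5 reached 100 CPM. In bulk RNA, fewer cells with a transcript and less transcript per cell cannot be told apart.

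The families held different shares of detected members. Detected were 11 of 19 ADAMTS genes (57.9%), 2 of 4 TIMP genes, 6 of 22 MMP genes (27.3%) and 8 of 33 ADAM genes (24.2%), and the difference between families was not tested. At a minimum of 1 CPM per kilobase these counts were 8, 2, 4 and 4, which puts ADAMTS genes below TIMP genes. Within the ADAM family, 7 of 9 catalytic ADAMs of somatic tissues were detected, and 1 of 21 ADAMs of testis, epididymis and sperm was, with 15 of these 21 at 0 counts. None of 3 collagenases, neither matrilysin nor metalloelastase, and none of 3 non-catalytic neural ADAMs was detected. Both cartilage oligomeric matrix protein (COMP)-cleaving ADAMTSs and both fibrillin-binding ADAMTSs were detected.

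**Figure D1:**
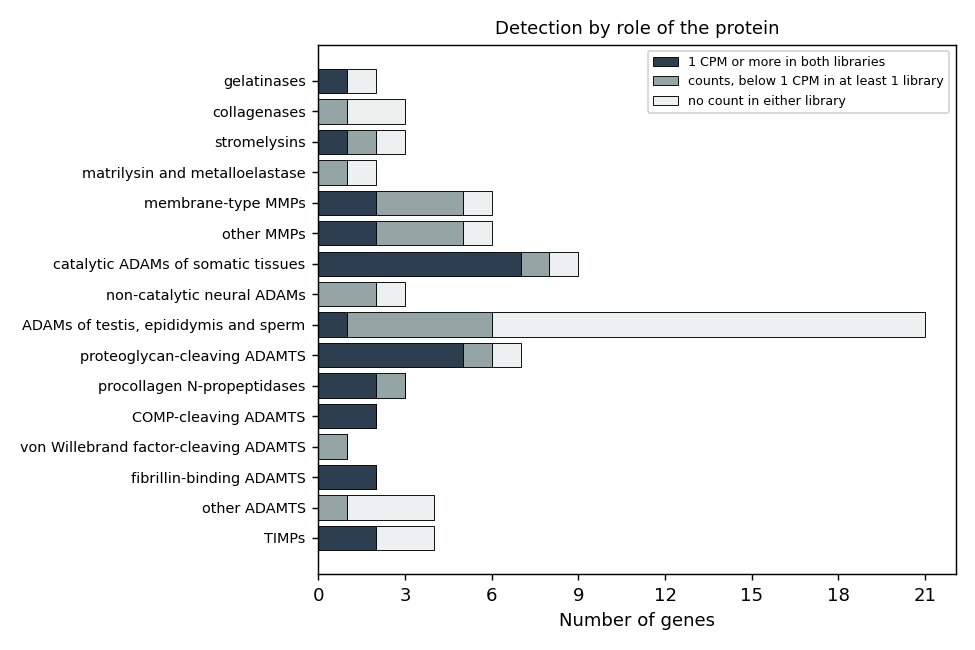
Number of genes (x axis) in each role group of the MMP, ADAM, ADAMTS and TIMP genes (rows), split by whether a gene was detected, had counts but was below 1 CPM in at least 1 library, or had no count. The longest bar is that of the ADAMs of testis, epididymis and sperm, with 1 of 21 genes detected.

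The ADAM RNA came almost entirely from 3 membrane sheddases. Adam10 (chromosome 9, 70678997 to 70780229, GRCm38), whose protein cuts Notch receptors and E-cadherin, stood at 508 CPM in replicate 1 and 493 CPM in replicate 2. Adam9 (chromosome 8, 24949611 to 25016927), a sheddase of several growth factors, stood at 379 and 381 CPM. Adam17, the enzyme that releases tumour necrosis factor and most EGF-receptor ligands, stood at 112 and 111 CPM. All 3 repeated closely between the libraries, and their ranges did not overlap.

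Divided by exonic length, Adam10 had the highest level of all 78 members, at 102 ± 2.13 CPM per kilobase (SD, n = 2). Adam9 followed at 92.4 ± 0.323 CPM per kilobase and Adam17 at 15.6 ± 0.185 CPM per kilobase. Among detected genes of the table, Adam10 lay at percentile 97.3 of level per kilobase, Adam9 at percentile 97.0 and Adam17 at percentile 72.8. Adam10 and Adam9 made up 88.7% ± 0.0374 of the summed ADAM level per kilobase, and with Adam17 the share was 95.8%.

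Adam10 over Adam17, as a ratio of levels per kilobase, was 6.58 in replicate 1 and 6.5 in replicate 2. Adam15, a disintegrin with an integrin-binding loop, reached 6.94 and 6.49 CPM per kilobase, and Adam15 over Adam9 was 0.0727 ± 0.00372 on that scale (0.112 with the longest transcript as the length). Of the exonic bases of Adam15, 20.6% lie in exons of a gene on the other strand. The remaining detected ADAMs were low. Adam8, best known from leukocytes, stood at 4.43 and 4.57 CPM, and Adam33, known from human asthma genetics, at 2.47 and 2.62 CPM. Adam12, a regulator of muscle and fat cell fusion and differentiation, stood at 1.37 and 1.68 CPM.

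The only detected gene of the testis and sperm group was Adam1a, at 1.49 and 2.27 CPM. Of its exonic bases 63.7% lie in exons of other annotated genes, among them Mapkapk5. In addition, 77.8% of its 50-base windows recur in transcripts of other genes, so its counts are uncertain. Of the catalytic ADAMs of somatic tissues that were not detected, Adam19 had 3 and 2 counts and Adam28 had 0 counts in both libraries. Adam4 (19 and 19 counts), Adamts5 (19 and 18) and Adam11 (20 and 14) were the ADAM and ADAMTS genes nearest below the minimum.

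**Figure D2:**
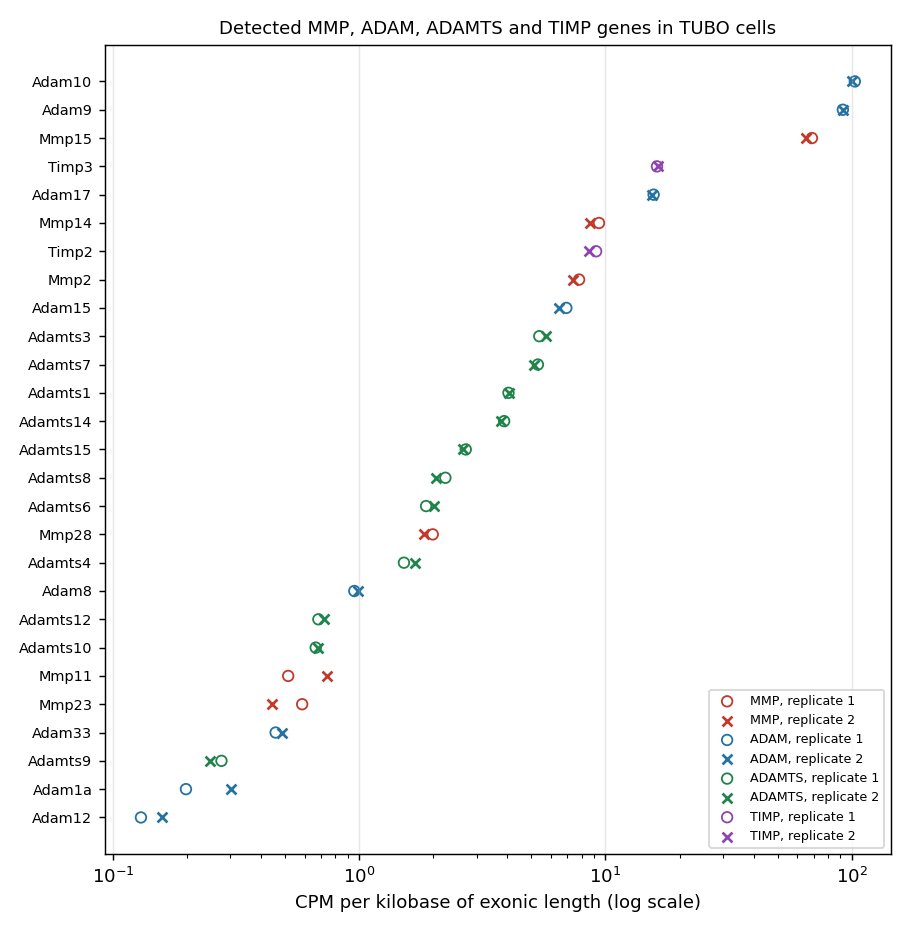
Level of the detected members in CPM per kilobase of exonic length (log axis), 1 point per library, ordered by the mean of the 2 libraries and coloured by family. Adam10, Adam9 and Mmp15 stand apart at the top between 65.0 and 103 CPM per kilobase, and the next member, Timp3, is at 16.2 and 16.4.

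One membrane-type enzyme carried most of the MMP RNA. Mmp15 (chromosome 8, 95352268 to 95375080), which encodes membrane-type 2 MMP, stood at 372 CPM in replicate 1 and 351 CPM in replicate 2. Mmp14, the membrane-type 1 enzyme that cuts fibrillar collagen and activates the precursor of gelatinase A, stood at 56.2 and 51.6 CPM. Mmp2, the gene of gelatinase A, stood at 26.4 and 24.9 CPM. Per kilobase, Mmp15 reached 67.0 ± 2.80, Mmp14 9.04 ± 0.542 and Mmp2 7.61 ± 0.299 CPM per kilobase.

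Mmp15 made up 76.8% ± 0.0256 of the summed MMP level per kilobase, and Mmp15, Mmp14 and Mmp2 together 95.9% ± 0.134. Mmp14 over Mmp15, as a ratio of levels per kilobase, was 0.137 in replicate 1 and 0.133 in replicate 2, so Mmp14 was the scarcer of the pair (0.236 with the longest transcript as the length). Mmp14 over Mmp2 was 1.2 and 1.17 on the same scale, and 2.0 with the longest transcript. The other 3 detected MMPs were Mmp28 (epilysin) at 7.72 and 7.08 CPM, Mmp11 (stromelysin-3) at 1.43 and 2.06 CPM, and the membrane-anchored Mmp23 at 1.37 and 1.03 CPM.

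The secreted collagenases, stromelysins 1 and 2, gelatinase B, matrilysin and metalloelastase were at or near 0. Mmp9, the gene of gelatinase B, had 0 counts in both libraries, which puts Mmp15 at least 2602-fold higher per kilobase against the floor of 3 counts in each library. Mmp3 (stromelysin-1), Mmp8 (neutrophil collagenase), Mmp12 (macrophage metalloelastase), Mmp13 (collagenase-3), the membrane-type Mmp17 and the enamel protease gene Mmp20 also had 0 counts. Mmp1b had 4 and 1 counts, Mmp10 (stromelysin-2) had 1 and 1, Mmp7 (matrilysin) had 1 and 0, Mmp27 had 0 and 1 and Mmp25 had 0 and 1. Between these and the detected genes lay the membrane-type Mmp24 (19 and 21 counts) and Mmp16 (12 and 15), Mmp19 (19 and 18) and Mmp21 (7 and 13). Exons of genes on the other strand cover 28.3% of the exonic bases of Mmp19 and 13.6% of those of Mmp24, so their few counts are uncertain. Mmp1a is not among the genes measured, so nothing can be said of it here.

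Among the inhibitors, Timp3 and Timp2 held all TIMP counts. Timp3, the matrix-bound inhibitor that also blocks ADAM17 and several ADAMTSs, stood at 132 CPM in replicate 1 and 133 CPM in replicate 2. Timp2, which links the membrane-type 1 enzyme to the gelatinase A precursor, stood at 35.7 and 33.3 CPM. Timp1 (chromosome X, 20870166 to 20874735), a secreted inhibitor induced by growth factors and cytokines in many cell types, had 0 counts in both libraries, as did Timp4. No exonic base of Timp1 lies in an exon of another annotated gene, and none of its 50-base windows recurs in a transcript of another gene. Overlap with introns was not measured.

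Per kilobase, Timp3 was at least 164-fold higher than Timp1 and at least 1091-fold higher than Timp4, against the floor of 3 counts in each library. Of the exonic bases of Timp3, 21.3% lie in exons of Syn3 on the other strand, and whether reads were counted by strand is not stated. Timp2 over Timp3, as a ratio of levels per kilobase, was 0.565 in replicate 1 and 0.523 in replicate 2. Timp2 over Mmp14 was 0.973 and 0.989 on that scale, so Timp2 was slightly lower in each library, although the ranges of the 2 genes over the libraries overlapped. With the longest transcript as the length that ratio was 0.560 ± 0.00613, and Timp2 over Timp3 was 0.331 ± 0.0181. The summed TIMP level was 0.289 ± 0.00826 of the summed MMP level per kilobase, at 25.4 and 24.9 CPM per kilobase for TIMPs and 89.8 and 84.6 for MMPs.

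The ADAMTS RNA was spread over many members, unlike that of the other families. The highest share of the summed ADAMTS level per kilobase was 19.3% ± 0.766, held by Adamts3, and the top 3 members together held 51.5% ± 0.260. Adamts3 and Adamts14, which remove the amino-terminal propeptide of procollagens, stood at 5.56 ± 0.244 and 3.83 ± 0.0727 CPM per kilobase. Adamts2, the third of these propeptidases, had 1 and 1 counts. Adamts7 and Adamts12, both COMP-cleaving, stood at 5.23 ± 0.130 and 0.702 ± 0.0265 CPM per kilobase.

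Of 7 proteoglycan-cleaving ADAMTSs, 5 were detected. Adamts1 stood at 21.4 and 21.6 CPM, Adamts15 at 28.1 and 27.4 CPM, and Adamts8 at 10.3 and 9.52 CPM. These 3 also led the group per kilobase, while Adamts4 (aggrecanase-1) was at 7.29 and 8.11 CPM and Adamts9 at 4.15 and 3.74 CPM. Adamts1 over Adamts9 was 14.6 and 16.4 as a ratio of levels per kilobase, with exonic lengths of 5302 bases for Adamts1 and 15048 for Adamts9. It was 8.96 with the longest transcript as the length and 5.46 for CPM. The fibrillin-binding Adamts6 and Adamts10 stood at 14.6 and 15.8 CPM and at 5.50 and 5.60 CPM. Adamts13, the enzyme that cuts von Willebrand factor, had 11 and 7 counts. For Adamts9, Adamts8 and Mmp28, 10.6% to 12.0% of exonic bases lie in exons of genes on the other strand.

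In the order of level per kilobase, neighbours above Adamts6 had ranges over the libraries that did not overlap, apart from Mmp14 and Timp2, which did. Adamts6 and Mmp28, Adamts10 and Mmp11, Mmp11 and Mmp23, Mmp23 and Adam33, and Adamts9 and Adam1a overlapped as well. With the longest annotated transcript as the length, Adam10, Adam9, Mmp15, Timp3, Adam17 and Mmp14 kept this order, and Adam15 (10.5 CPM per kilobase) stood above Timp2 (9.31).

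Most MMP genes with almost no counts lie together. Members with another member within 1000 kb formed 11 clusters of 35 genes, of which 6 were detected (17.1%), against 21 of the 43 genes that stood alone (48.8%). The clusters hold most ADAMs of the testis and sperm group, of which 1 of 21 was detected. The contrast thus also follows gene class, and it was not tested. On chromosome 9, from 7272514 to 7699585 (GRCm38), Mmp13, Mmp12, Mmp1b, Mmp3, Mmp10, Mmp8, Mmp27, Mmp20 and Mmp7 span 427 kb, and all 9 together had 6 counts in replicate 1 and 3 in replicate 2. The genes on both sides were expressed, with Dcun1d5 at 37.2 ± 0.902 CPM, 64.3 kb before the cluster, and Tmem123 at 127 ± 5.0 CPM, 64.5 kb after it.

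A cluster of 415 kb on chromosome 8 (24602246 to 25016927) held the opposite extremes. Adam18, Adam3 and Adam5, genes of the testis and sperm group, had 0 counts in both libraries. Adam32 had 17 and 16 counts. Adam9, at the end of the cluster, stood at 379 and 381 CPM, and its neighbour Tm2d2, whose annotation starts 0.284 kb away, at 46.6 and 46.4 CPM. Farther along chromosome 8, Adam24, Adam25, Adam20 and Adam39 and then Adam26b, Adam26a and Adam34 had 0 counts, as had Adam6a and Adam6b on chromosome 12 and Adam7 and Adam28 on chromosome 14. Apart from Adam24, Adam7 and Adam28, these genes share 26.8% to 36.7% of their 50-base windows with other genes, so their counts are uncertain. Adamts1 was likewise detected beside Adamts5, which was not, and in 1 cluster, that of Adamts15 and Adamts8 on chromosome 9, all members were detected.

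**Figure D3:**
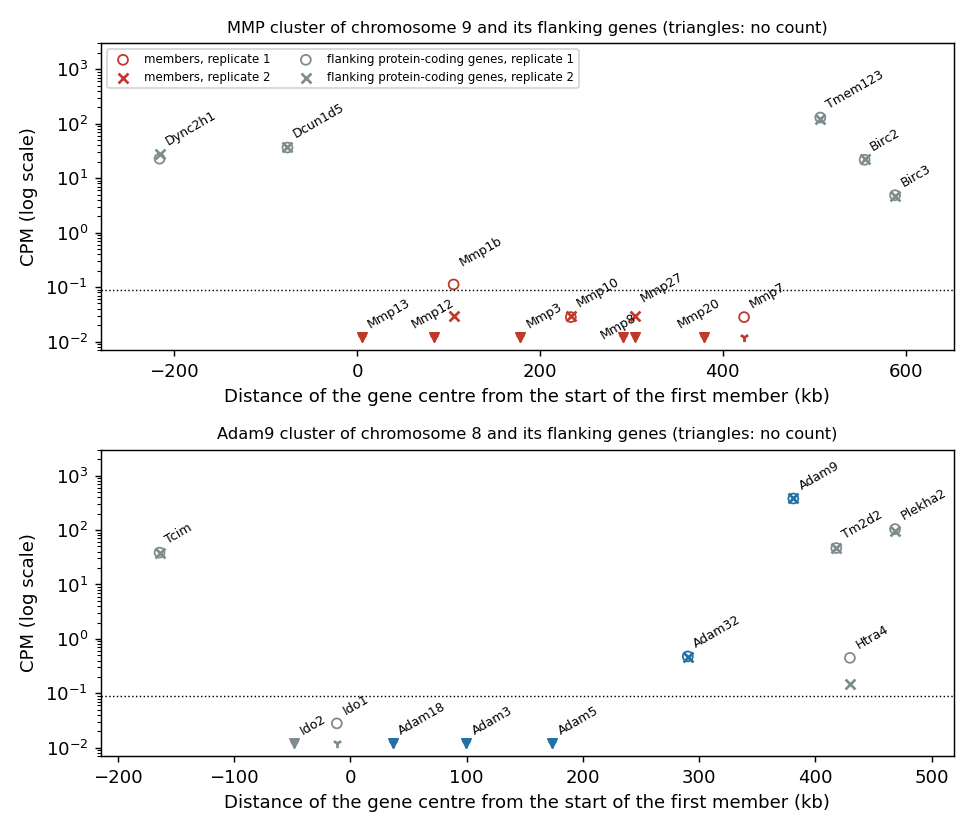
CPM (log axis) of each gene in the chromosome 9 MMP cluster (top) and the chromosome 8 cluster with Adam9 (bottom) and of flanking protein-coding genes within 200 kb, against the distance in kb of the gene centre from the start of the first member. Circles are replicate 1, crosses replicate 2, triangles at the bottom libraries with no count, and the dotted line is the level of 3 counts. All 9 MMP genes lie near or below that line, while Dcun1d5 and Tmem123 on either side are above 30 CPM.

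Most promoters of the chromosome 9 cluster carry a known element. AP-1, a dimer of Jun and Fos family proteins, binds the heptamer TGAGTCA, which reads TGACTCA on the other strand, and it is a textbook element of MMP promoters. The stretches below are from RefSeq (GRCm38.p6), on the strand of each gene and 5′ to 3′, and end at or shortly before the annotated start. Bases annotated as exonic were cut off. They are shown because 6 of the 9 genes of the cluster carry the heptamer, which is in capitals.
Mmp13 (chr9:7272404-7272513, plus strand): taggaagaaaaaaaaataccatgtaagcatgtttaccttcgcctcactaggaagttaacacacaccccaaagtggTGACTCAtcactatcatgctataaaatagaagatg
Mmp12 (chr9:7347264-7347373, plus strand): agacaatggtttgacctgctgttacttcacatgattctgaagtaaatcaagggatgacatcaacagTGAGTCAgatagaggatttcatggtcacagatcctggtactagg
Mmp1b (chr9:7388048-7388136, minus strand): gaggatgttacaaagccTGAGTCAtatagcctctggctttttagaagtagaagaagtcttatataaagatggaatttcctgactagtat
Mmp3 (chr9:7445712-7445821, plus strand): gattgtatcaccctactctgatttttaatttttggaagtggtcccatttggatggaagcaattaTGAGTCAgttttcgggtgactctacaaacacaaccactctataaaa
Mmp10 (chr9:7502232-7502341, plus strand): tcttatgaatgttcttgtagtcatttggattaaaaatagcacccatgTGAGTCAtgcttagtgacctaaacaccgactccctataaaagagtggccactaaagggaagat
Mmp7 (chr9:7691980-7692089, plus strand): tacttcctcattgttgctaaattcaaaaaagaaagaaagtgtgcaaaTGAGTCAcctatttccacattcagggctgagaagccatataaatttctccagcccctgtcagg

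The first base of the heptamer lay 35 bases before the start in Mmp13, 44 in Mmp12, 46 in Mmp3, 63 in Mmp10, 63 in Mmp7 and 93 in Mmp1b, with Mmp12 and Mmp7 carrying it before 1 of their 2 annotated starts. RefSeq promoters were matched for 48 of the 78 members and for 17 of the 27 detected ones. For 38 of the 53 windows of these members, the first transcribed bases were found in an annotated transcript of the gene. The starts of the other windows were thus not matched to the annotation used for lengths. Adam9, Mmp2 and the undetected Mmp9 were among those without a match, so the counts below do not cover them. In the 250 bases before the start, searched on both strands, the heptamer was found in 0 of 17 detected members and in 8 of 31 members not detected (25.8%). A gene with several annotated starts was counted if the window of any of them held the heptamer. Outside the cluster, 2 of 22 members not detected held it, Adam29 and Adam19. It was found in 948 of 19407 promoters of all genes matched (4.88%), in 3.79% of those of detected protein-coding genes and in 5.87% of those of protein-coding genes not detected. A match of letters is not a binding site, and no match says only that these letters were not in the window.

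The AP-1 genes themselves were expressed. Of 8 listed factors 7 were detected, against the 37.7% of all genes and 50.6% of protein-coding genes given above. Junb stood at 168 CPM in replicate 1 and 163 CPM in replicate 2, Fosl2 at 66.5 and 63.3 CPM and Jund at 44.8 and 43.2 CPM. Fosb was at 2.13 and 2.15 CPM and Batf had 0 counts. No listed factor passed the test between the libraries described below.

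Detected members had a higher median CpG content in the same windows than the others, a measure that was chosen after values had been seen and was not tested. For a gene with several annotated starts, the highest ratio among its windows was taken. The median ratio of observed to expected CpG was 0.672 (0.259 to 0.982) in the 17 detected members with a matched promoter. It was 0.129 (0 to 0.960) in the 31 such members not detected. It was 0.117 in the chromosome 9 cluster. Detected protein-coding genes of the table had a median of 0.778, and protein-coding genes not detected had 0.255, so the members followed the same order as other genes. The stretches below, made in the same way, show the most abundant ADAM and MMP genes and Timp1, which had 0 counts, with CG in capitals.
Adam10 (chr9:70678872-70678981, plus strand): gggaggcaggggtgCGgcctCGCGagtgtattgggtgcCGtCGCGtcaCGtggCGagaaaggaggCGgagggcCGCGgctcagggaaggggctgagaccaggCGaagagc
Mmp15 (chr8:95352186-95352267, plus strand): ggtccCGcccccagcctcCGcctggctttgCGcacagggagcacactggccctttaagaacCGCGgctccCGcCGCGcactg
Timp1 (chrX:20870056-20870165, plus strand): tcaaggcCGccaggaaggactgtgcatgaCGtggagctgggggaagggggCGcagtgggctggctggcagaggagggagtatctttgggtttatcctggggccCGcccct
Adam10 has 12 CG in 110 bases, Mmp15 has 8 in 82 bases and Timp1 has 4 in 110 bases, so the Timp1 stretch is the poorest in CG of the 3.

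**Figure D4:**
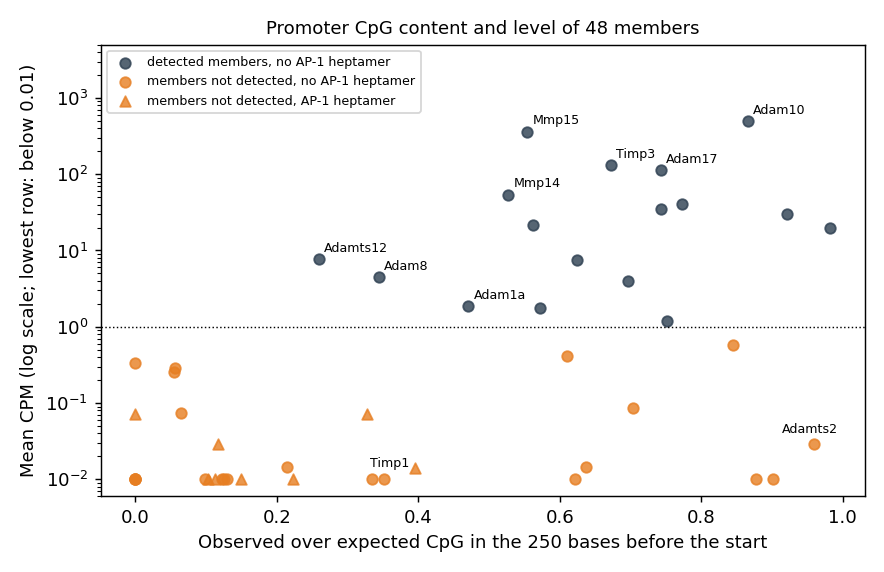
Mean CPM of the 2 libraries (log axis, with values under 0.01 drawn at the bottom) against the ratio of observed to expected CpG in the 250 bases before the start, for the 48 members with a RefSeq promoter. Dark points are detected members, orange points members not detected, triangles members with the AP-1 heptamer, and the dotted line marks 1 CPM. Where a member has several annotated starts, the highest ratio is drawn. All 8 triangles are among the members not detected.

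The carriers and activators of the abundant sheddases were present. Of 9 genes for iRhoms, their partner Frmd8 and TspanC8 tetraspanins, which carry ADAM17 and ADAM10 to the cell surface, 8 were detected. The share detected over all protein-coding genes was 50.6%. Rhbdf1 (iRhom1) stood at 126 ± 1.05 CPM, Tspan14 at 92.3 ± 0.516 CPM and Frmd8 at 68.5 ± 0.153 CPM. At the low end were Tspan5 at 3.32 ± 0.137 CPM and Tspan10 with 1 and 2 counts. Of 5 proprotein convertases, which remove the propeptide of membrane-type MMPs and ADAMs, 4 were detected, led by Furin (205 ± 11.8 CPM), Pcsk6 (139 ± 5.37 CPM) and Pcsk7 (52.6 ± 1.20 CPM). The lowest were Pcsk4 at 2.06 ± 0.174 CPM and Pcsk5 at 0.187 ± 0.0269 CPM.

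Beside 50.6% of protein-coding genes, 4 of 8 other inhibitors and regulators were detected. They were the matrix glycoprotein gene Thbs1 (689.7 ± 5.61 CPM), Bsg (492 ± 13.0 CPM), whose protein induces MMPs in neighbouring cells, the membrane-anchored MMP inhibitor Reck (7.97 ± 1.40 CPM) and the procollagen proteinase enhancer Pcolce (4.33 ± 0.00985 CPM). A2m, the gene of the plasma inhibitor alpha-2-macroglobulin, Spock1 and Thbs2 had 0 counts. Of 7 ADAMTS-like genes, which lack the protease domain, 4 were detected, with Papln at 449.7 ± 15.5 CPM, Adamtsl4 at 20.6 ± 1.23 CPM and Thsd4 at 19.9 ± 0.151 CPM. Adamtsl1 and Adamtsl2 had 0 counts.

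The substrates on the cell surface were mostly expressed. Of 22 shed membrane proteins, 19 were detected, beside 50.6% of protein-coding genes. The highest were App (1481 ± 52.9 CPM), Sdc4 (1276 ± 34.1 CPM) and Cdh1 (774 ± 31.2 CPM), while Ereg and Erbb4 had 0 counts. Of 14 matrix substrates, 6 were detected, between the shares of all genes (37.7%) and of protein-coding genes (50.6%). Among the 6 were the basement membrane genes Col4a1 (429 ± 12.4 CPM) and Col4a2 (289.9 ± 5.77 CPM) and the fibronectin gene Fn1 (31.9 ± 1.14 CPM). The elastic fibre genes Eln and Fbn1 and the fibrillar collagen genes Col1a2 and Col3a1 had 0 counts.

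With 1 group, the only test possible between samples compared the 2 libraries, gene by gene. By the two-sided exact binomial test with Benjamini-Hochberg adjustment over 13336 genes, 1 of the 35 members with enough counts was called, against a background of 8.13% of genes. This was Mmp15, with 13272 counts in replicate 1 and 11903 in replicate 2, a log2 ratio of replicate 2 over replicate 1 of -0.09 and an adjusted p of 0.000136 by that exact test. By direction, 0 of 35 members were called higher in replicate 2, beside 3.67% of all genes, and 1 of 35 lower, beside 4.46%. Adam10 (adjusted p = 0.0637) and Mmp14 (adjusted p = 0.0912) missed the threshold in the exact binomial test, although scaling by library totals called both. The members' median log2 ratio was -0.004, beside -0.002 over all genes tested.

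That test counts any difference beyond counting error, and at an unadjusted p under 0.05 it held 5 of the 35 members, beside 19.9% of all genes. Among the accessory lists it called 2 of 4 regulators higher in replicate 2 (Bsg and Reck). It called 1 of 4 convertases lower (Furin) and 1 of 4 ADAMTS-like genes higher (Papln). It called 2 of 19 shed substrates higher and 5 of 19 lower, 2 of 8 matrix substrates lower and 0 of 8 iRhom, Frmd8 or tetraspanin genes. Over all genes 3.67% were called higher and 4.46% lower (8.13% in either direction). The called list genes were mostly deep ones with small ratios, such as App (54132 and 48970 counts, log2 ratio -0.07). Reck, with 249 and 304 counts, was not. edgeR's exact test with a dispersion called 0 of the 35 members and 0.112% of all genes, and 0 of the 35 and 4.83% of all genes at an unadjusted p under 0.05. Its dispersion was estimated from the same 2 libraries that it compares, so their difference enters its own error term, and few calls say nothing about stability.

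**Figure D5:**
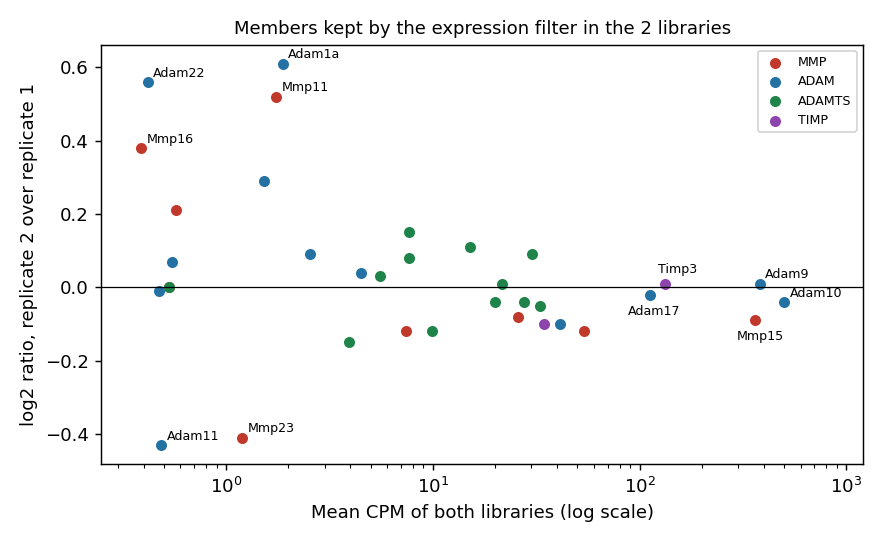
Log2 ratio of replicate 2 over replicate 1 (y axis) against mean CPM (log axis) for the 35 members with enough counts to test. Members above 100 CPM lie within 0.1 of 0, and larger ratios are seen in members at a few CPM, such as Adam1a and Mmp11.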

How the data were processed

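Stranded mRNA libraries were made from column-extracted, DNase-treated RNA, per the labels' protocols. The authors deposited unnormalised counts, 1 row per gene symbol. Builds and tools in the submitters' processing notes, whose roles are not stated, are mm10, Cell Ranger 3.0.0, featureCounts, STAR 2.7.9a, R 4.1.1 and FastQC 0.11.9. How the counting treated strand, annotation and reads with several matches is not given in these sources, so counts of overlapping or similar genes are uncertain.

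Columns were assigned to samples by replicate number. CPM were computed with edgeR 4.0.16 (R 4.3.3), whose TMM factors were 1.005 and 0.9946. Lengths and coordinates came from GENCODE M21 (GRCm38), matched singly for 98.1% of genes and all 78 members, with exons of all transcripts merged. Shared sequence was sought in 50-base transcript windows. Genes kept by filterByExpr (13336) were tested between libraries. The procedure was also run on simulated libraries whose only noise was counting error, so that run is no check for differences beyond it. Reads carry no molecular identifiers, so floors cover counting error only.

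The members, lists and rules were chosen with earlier results of these data known. Named were all detected members, all MMP and TIMP genes, the other catalytic ADAMs of somatic tissues, the 3 ADAM or ADAMTS genes nearest below the minimum, and the 3 highest and 2 lowest of each accessory list; others named (Adam1a's group, cluster members, Adamts2, Adamts13, Adam29, Pcolce, Thbs2, Fn1, flanking genes) were chosen after their values were seen. The values of 1 gene that this rule names are not reported here. Catalytic motifs in protein sequences, which had been planned, were not analysed here. Alternatives were library totals, DESeq2 1.42.0 and upper-quartile factors, other minimums, the longest transcript as length, no filter, a dispersion-based test and each library left out.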

Additional observations from a re-analysis of the deposited data

How the results depend on the processing

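The same 27 members were detected with library totals, DESeq2 or upper-quartile factors and in either library alone. At 0.5 CPM 31 were detected and at 2 CPM 23, which lost Mmp11, Mmp23, Adam1a and Adam12. At 1 CPM per kilobase 18 were detected, with 8 ADAMTS, 4 MMP, 4 ADAM (in place of 8) and 2 TIMP genes. Ratios between genes rested on the length used. With the longest transcript, Adam10 over Adam17 was 4.37, Mmp14 over Mmp15 0.236, Timp2 over Mmp14 0.560, Timp2 over Timp3 0.331, Mmp14 over Mmp2 2.0, Adam15 over Adam9 0.112, Adamts1 over Adamts9 8.96 and summed TIMPs over MMPs 0.376. With no division by length, in the same order, they were 4.49, 0.149, 0.641, 0.260, 2.1, 0.109, 5.46 and 0.369. None changed side of 1 under these lengths. Levels of named members moved by less than the SD under the other scalings. Leaving out 1 of 2 libraries always moves a mean by less than the SD, so it is no check of stability. The longest transcript moved 26 of 45 levels per kilobase, by 1.0- to 2.0-fold in detected members. Between the libraries, library totals called 3 members (Adam10, Mmp15 and Mmp14), DESeq2 factors 2 (Adam10 and Mmp15) and edgeR's exact test with dispersion 0, against 1 in the test reported. Mmp15 was lower in replicate 2 under each scaling, by a log2 ratio of -0.08 to -0.10. Genes under 3 counts cannot be ordered at this depth. No paired analysis was possible because there was 1 group.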
